A study of Mus musculus with 30 samples.

Results

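Bdh1, Oxct1, Acat1 and Slc16a1 encode the proteins by which a heart cell takes up and burns ketone bodies. They were found by symbol through their Ensembl identifiers, and each symbol matched 1 gene in each of the deposited count tables: 4 of the 78258 genes of the postpartum study and 4 of the 56691 genes of the diet study. The identifiers were ENSMUSG00000046598.16 for Bdh1, ENSMUSG00000022186.15 for Oxct1, ENSMUSG00000032047.6 for Acat1 and ENSMUSG00000032902.2 for Slc16a1. All 4 passed the filter on low counts in both studies.

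Ketone bodies are made mainly in the liver from fatty acids during fasting, late pregnancy and other times of high fat breakdown, and the heart is one of their main users. Slc16a1 encodes the monocarboxylate carrier MCT1, which moves beta-hydroxybutyrate, acetoacetate, lactate and pyruvate across the cell membrane. In the mitochondrion Bdh1 oxidises beta-hydroxybutyrate to acetoacetate, Oxct1 (the transferase SCOT) activates acetoacetate with a coenzyme A taken from succinyl-CoA, and the thiolase Acat1 splits acetoacetyl-CoA into acetyl-CoA for the tricarboxylic acid cycle. Acat1 also acts in the breakdown of isoleucine, and Slc16a1 serves lactate and pyruvate as much as ketones, so neither gene is specific to ketone use.

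The study measured hearts of wild-type (WT) mice and of mice whose CHCHD10 carries the p.S55L mutation. CHCHD10 is a protein of the mitochondrial intermembrane space, and these mice are a model of mitochondrial cardiomyopathy. Naive mice of either genotype were kept to an age of 100 days, and PP (postpartum) mice had been put to breeding at 65 days and were killed 0 days after birth. A separate diet study used S55L PP mice alone, which ate a control diet or EH301 while breeding. EH301 combines the NAD precursor nicotinamide riboside with pterostilbene. The labels give neither the zygosity of S55L nor the sex of the naive mice, and do not say that each library is 1 mouse. The p-values therefore rest on the spread between libraries, which may be technical. After identical columns were counted once, 5 WT naive, 4 WT PP, 5 S55L naive and 4 S55L PP libraries were compared. A column that appeared under each of the diets was not used, which left 4 libraries on each diet.

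Reads came from the 3' end of mRNAs, and levels are given as counts per 1000000 reads of the scaled library size (CPM). Reads on genes ranged from 1418715 to 2949993 in the WT and from 2755500 to 5131316 in the S55L postpartum-study libraries, and from 466651 to 3048461 in the diet study. Markers fixed for cardiomyocytes were far above those for hepatocytes, the main ketone-producing cells: their summed levels were 36319 to 99658 CPM and 1.21 to 4.83 CPM over the 18 libraries, and no cardiomyocyte marker was at 0. Control diet library 1, with 466651 reads on genes, had a hepatocyte marker sum of 189 CPM and a skeletal muscle marker sum of 1121 CPM, where its 3 group mates reached 9.0 and 28.1 CPM. EH301 library 8 had a skeletal muscle marker sum of 309 CPM, against 10.7 to 32.2 CPM in the others on EH301, and a macrophage marker sum of 4923 CPM against 1260 to 2311 CPM. EH301 library 10 had a hepatocyte marker sum of 38.7 CPM, against 2.23 to 10.7 CPM in the others on EH301.

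The starts of Slc16a1 and Oxct1 are shown because these were the members with lower levels in every S55L library than in any WT library of the postpartum study. How many of all tested genes separated in this way was not counted. RefSeq (GRCm38.p6) gave the 250 bases before the start of 3 of the 4 genes, all on the + strand. The Slc16a1 window lies at chr3:104638414-104638663 and the Oxct1 window at chr15:4026178-4026427. Capitals mark the matches of the motifs searched.
Slc16a1: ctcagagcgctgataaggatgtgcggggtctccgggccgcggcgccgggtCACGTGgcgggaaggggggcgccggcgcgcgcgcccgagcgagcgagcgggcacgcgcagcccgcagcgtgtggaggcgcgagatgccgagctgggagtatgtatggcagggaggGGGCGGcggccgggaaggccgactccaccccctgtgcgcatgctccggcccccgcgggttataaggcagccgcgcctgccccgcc
Oxct1: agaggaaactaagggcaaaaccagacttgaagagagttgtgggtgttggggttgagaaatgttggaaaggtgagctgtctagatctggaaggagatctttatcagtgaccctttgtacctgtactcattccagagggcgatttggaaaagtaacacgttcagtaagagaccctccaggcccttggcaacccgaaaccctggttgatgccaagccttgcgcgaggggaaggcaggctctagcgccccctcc
The windows differed in base composition. The Slc16a1 window had a GC content of 76.4% and 37 CpG dinucleotides, the Oxct1 window 52.0% and 6, and the median GC content over 32851 start windows was 52.4%. Bdh1 had a pair of annotated starts, at chr16:31422047-31422296 with 49.6% and at chr16:31428503-31428752 with 60.8%. Both strands were searched for AGGTCA (a nuclear receptor half-site), TGATGNAAN (an ATF4 and C/EBP type site), CACGTG (an E-box), CCAAT and GGGCGG (a GC box). These letters were found in 14.02%, 3.44%, 6.02%, 33.85% and 32.74% of the start windows. The Slc16a1 window held CACGTG at 200 bases and GGGCGG at 85 bases before the start. No other match was found in the 4 windows, which says only that these letters are not there, and a match is a description of the letters and not a binding site.

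S55L hearts had lower levels of 3 of the 4 genes than WT hearts in each state. Among naive mice Slc16a1, Bdh1 and Oxct1 fell, and among PP mice Slc16a1, Acat1 and Oxct1 fell (adjusted p below 0.05 by the edgeR quasi-likelihood test). No member rose. Changes between the genotypes were frequent among all genes: 43.5% of the 11945 tested genes were called among naive hearts (21.9% higher, 21.6% lower) and 31.5% among PP hearts (16.3% higher, 15.2% lower). The median log2 fold change of the 4 members was -0.54 among naive and -0.46 among PP hearts, against medians of -0.0039 and -0.00068 over all genes tested. With only 4 members, a count of 3 against a background of 21.6% or 15.2% is a description of these genes. Overlap between the genotypes was checked for the members and the listed genes only. A lack of overlap is therefore not set against a share over all genes.

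**Figure D1:**
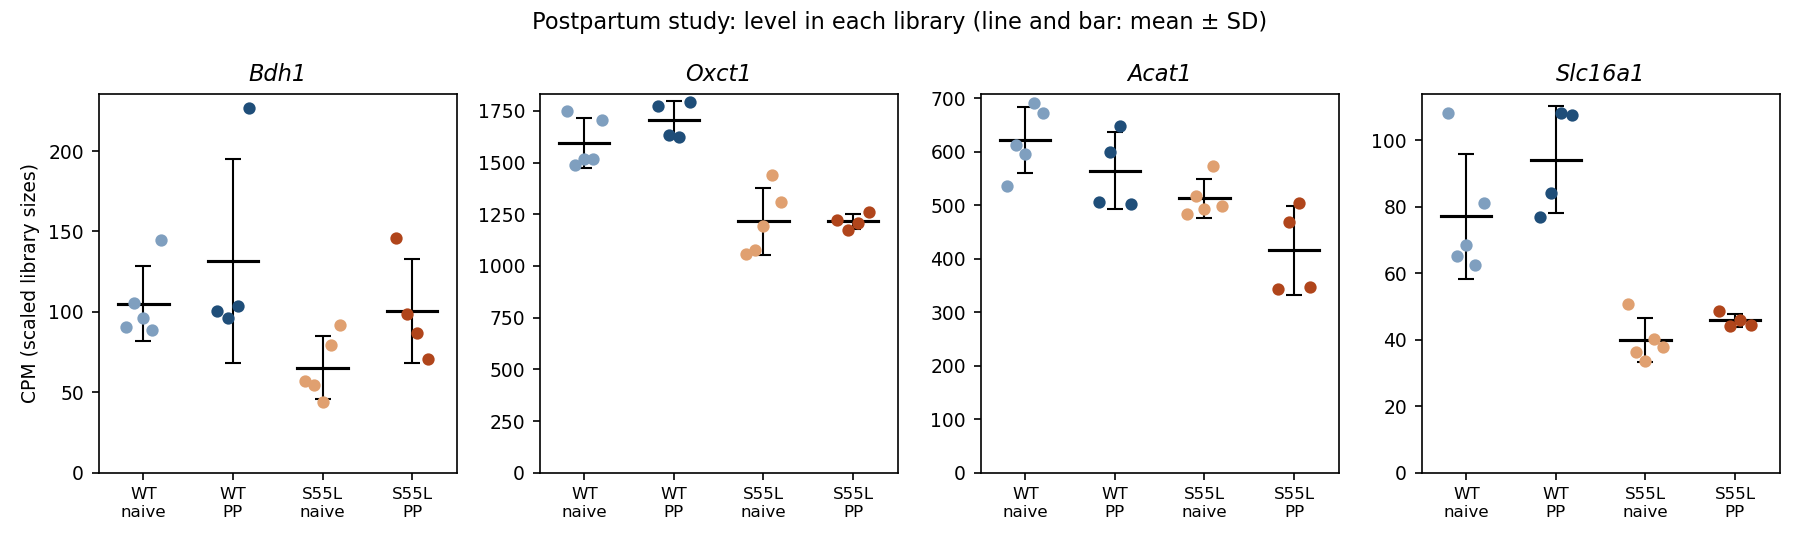
Level of each gene (vertical axes, CPM) in the 18 libraries of the postpartum study, by group. Points are libraries, and lines and bars are means ± SD. The Oxct1 and Slc16a1 points of S55L hearts lie below all points of WT hearts, whereas the genotypes overlap for Bdh1 and Acat1.

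Slc16a1, the carrier, had the largest differences of the 4. In WT naive hearts its levels were 108, 65.3, 68.4, 62.5 and 81.1 CPM, and in S55L naive hearts 50.9, 36.5, 33.7, 40.4 and 37.9 CPM. In WT PP hearts they were 76.9, 84.3, 108 and 108 CPM, and in S55L PP hearts 48.6, 44.0, 46.0 and 44.6 CPM. The 9 WT libraries lay between 62.5 and 108 CPM and the 9 S55L libraries between 33.7 and 50.9 CPM, so the genotypes did not overlap in either state. Slc16a1 was 1.94-fold lower in S55L naive than in WT naive (log2 fold change -0.96, SE 0.16, adjusted p = 2.1e-05). It was 2.05-fold lower in S55L PP than in WT PP (-1.04, SE 0.17, adjusted p = 3.9e-05). The change is based on few reads, 80 to 300 per library, and both calls held with each library left out in turn, with adjusted p up to 1.4e-04 and 3.1e-04. The order of mean levels was WT PP (94.2 ± 16.0 CPM), WT naive (77.1 ± 18.8), S55L PP (45.8 ± 2.05) and S55L naive (39.9 ± 6.62; SD, n = 4, 5, 4 and 5). WT PP and WT naive overlapped, as did S55L PP and S55L naive.

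Bdh1, the dehydrogenase of beta-hydroxybutyrate, was lower in naive S55L hearts. Its levels were 90.7, 105, 95.9, 88.9 and 145 CPM in WT naive and 57.1, 54.5, 44.1, 79.6 and 91.8 CPM in S55L naive. Of the 5 S55L naive libraries 4 lay below all WT naive libraries, and S55L naive 5 lay above the lowest of them. Bdh1 was 1.61-fold lower (log2 fold change -0.69, SE 0.26, adjusted p = 0.038). This call was lost without WT naive 2 (adjusted p = 0.058), WT naive 5 (0.11), S55L naive 1 (0.077), S55L naive 2 (0.082) or S55L naive 3 (0.085).

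In PP hearts Bdh1 was at 100, 96.0, 104 and 227 CPM in WT and at 146, 98.9, 86.7 and 70.5 CPM in S55L. WT PP 5, at 227 CPM from 632 reads, stood apart from its group, and the genotypes overlapped. The difference did not pass (log2 fold change -0.40, 95% interval -1.01 to 0.21, adjusted p = 0.31), and without WT PP 5 it was 0.0076. The SD of Bdh1 was 22.0% to 48.1% of the mean in the 4 groups, against 3.04% to 24.3% for the other members. Mean levels ran from WT PP (132 ± 63.3 CPM) through WT naive (105 ± 23.2) and S55L PP (100.6 ± 32.6) to S55L naive (65.4 ± 19.6; SD, n = 4, 5, 4 and 5), and each neighbouring pair overlapped.

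Oxct1, the transferase, had smaller genotype differences than Slc16a1, with no overlap between the genotypes. WT naive hearts had 1747, 1488, 1515, 1517 and 1707 CPM, and S55L naive hearts 1058, 1075, 1193, 1440 and 1309 CPM. WT PP hearts had 1775, 1633, 1625 and 1794 CPM, and S55L PP hearts 1221, 1173, 1206 and 1262 CPM. Every S55L library lay below every WT library, at most 1440 against at least 1488 CPM. Oxct1 was 1.31-fold lower in S55L naive (log2 fold change -0.39, SE 0.12, adjusted p = 0.011) and 1.40-fold lower in S55L PP (-0.49, SE 0.14, adjusted p = 0.0069). Both calls held with each library left out, with adjusted p up to 0.035 and 0.024. Means were 1707 ± 90.0 CPM in WT PP, 1595 ± 122 in WT naive, 1216 ± 36.9 in S55L PP and 1215 ± 161 in S55L naive (SD, n = 4, 5, 4 and 5), and within a genotype the states overlapped.

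Acat1, the thiolase, was lower in S55L PP hearts. Its levels were 506, 600.1, 649 and 503 CPM in WT PP and 344, 468, 505 and 347 CPM in S55L PP. S55L PP 4, at 505 CPM, lay just above WT PP 5, at 503 CPM, and the other 3 S55L PP libraries lay below all WT PP libraries. Acat1 was 1.36-fold lower (log2 fold change -0.44, SE 0.15, adjusted p = 0.027). The call was lost without WT PP 3 (adjusted p = 0.067), WT PP 4 (0.098), S55L PP 1 (0.078) or S55L PP 5 (0.090).

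In naive hearts Acat1 was at 537, 612, 595.5, 691 and 673 CPM in WT and at 484, 516.6, 493, 573 and 498 CPM in S55L. Only S55L naive 4 lay above the lowest WT naive library. The difference did not pass (log2 fold change -0.28, 95% interval -0.57 to 0.01, adjusted p = 0.096). Whether the Acat1 differences in naive and PP hearts were unequal was tested by the interaction below and was not called. Means were 622 ± 62.1 CPM in WT naive, 565 ± 72.2 in WT PP, 513 ± 35.6 in S55L naive and 416 ± 83.0 in S55L PP (SD, n = 5, 4, 5 and 4), and each neighbouring pair overlapped.

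The postpartum state gave no call for a member in either genotype. Between WT PP and WT naive 0.0167% of the 11945 genes were called, and the member values were 0.33 for Bdh1 (95% interval -0.26 to 0.92), 0.10 for Oxct1 (-0.18 to 0.38), -0.14 for Acat1 (-0.45 to 0.17) and 0.28 for Slc16a1 (-0.07 to 0.64) on the log2 scale. Of these, the Bdh1 value was -0.07 without WT PP 5. By edgeR 0 members were called, 0 had an unadjusted p under 0.05, and DESeq2 and limma voom called 0.

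Between S55L PP and S55L naive the quasi-likelihood test called 0 genes (0%) against 747 at an unadjusted p under 0.05, and DESeq2 and limma voom called 18 and 22, no member among them. In this comparison 2 members had an unadjusted p under 0.05. Bdh1 was higher in S55L PP (log2 fold change 0.62, 95% interval 0.05 to 1.20, adjusted p = 0.75), with 2 of 4 PP libraries above all naive ones. Acat1 was lower (-0.30, -0.61 to 0.01, adjusted p = 0.79), with 3 of 4 PP libraries below all naive ones. Its interval includes 0 although the unadjusted p was under 0.05, because the intervals use fewer degrees of freedom than the test. Oxct1 was at 0.00088 (-0.28 to 0.28) and Slc16a1 at 0.20 (-0.15 to 0.55). The Oxct1 interval ended short of the genotype difference of that gene among naive hearts, -0.39.

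Whether the postpartum state acted unequally in the genotypes was tested by the interaction. It was called for 0 of 11945 genes (0%; 444 at an unadjusted p under 0.05; DESeq2 1 and limma voom 0) and for no member by these tools. The differences of log2 fold changes were 0.29 for Bdh1 (95% interval -0.53 to 1.12), -0.10 for Oxct1 (-0.49 to 0.30), -0.16 for Acat1 (-0.59 to 0.27) and -0.08 for Slc16a1 (-0.58 to 0.42). The naive and PP genotype differences of the carrier and the 3 enzymes were thus not shown to be unequal, and the intervals are too wide to show that they were equal.

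**Figure D2:**
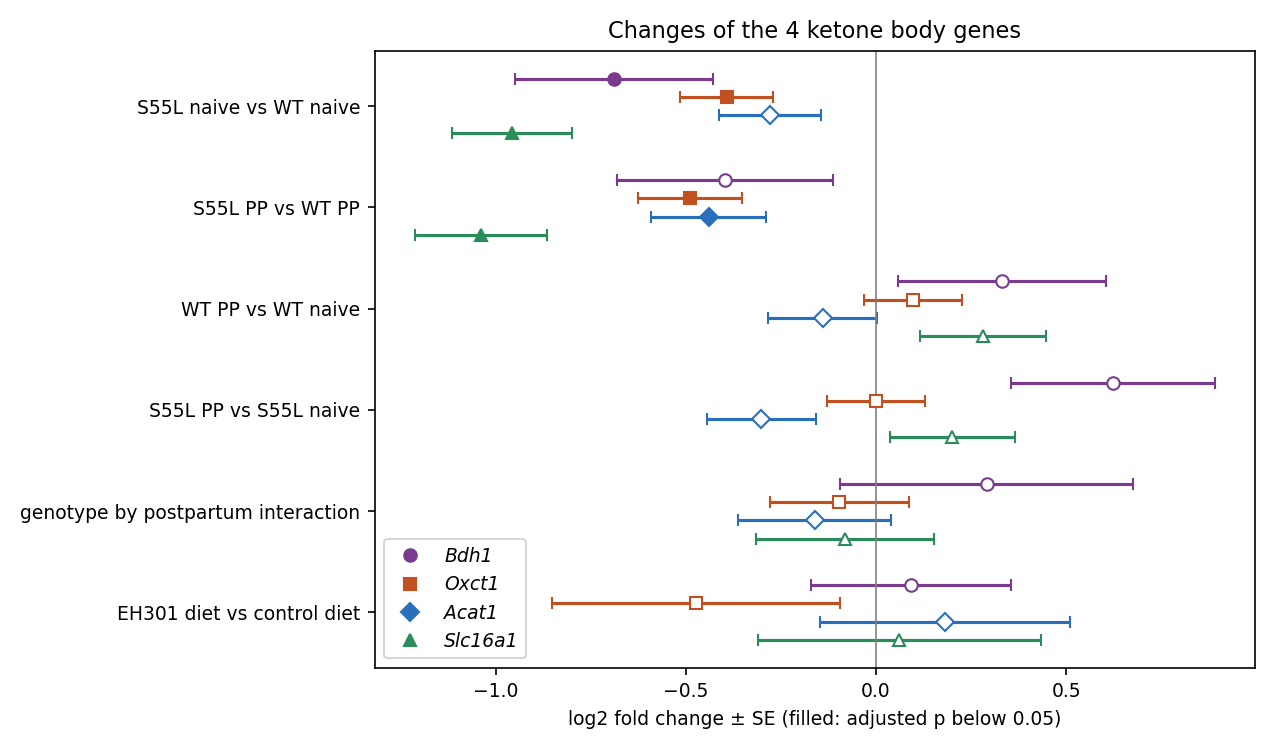
Log2 fold change of each gene (horizontal axis, ± SE) in the 5 tests of the postpartum study and the diet test. Filled symbols have an adjusted p below 0.05, and these are the 3 members lower in S55L naive and the 3 lower in S55L PP hearts.

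The levels of the members were also set against summed cardiomyocyte markers of the libraries, since hearts hold several cell types. The summed level of 9 cardiomyocyte markers was 79459 to 99658 CPM in WT naive and 79890 to 96676 CPM in WT PP hearts. S55L naive hearts had 44516 to 58230 CPM and S55L PP hearts 36319 to 47660 CPM. Of the 9 markers 8 fell in each genotype comparison, and the log2 ratio of the mean sums was -0.91 among naive and -1.04 among PP hearts. These markers moved unequally. Among naive hearts mean Myl3 was 15003 CPM in WT and 4349 in S55L, Myh6 15440 and 10381, and Actc1 was higher in S55L (9384 and 10339). Among PP hearts mean Actc1 was lower in S55L (11811 and 8369). In bulk samples fewer cells of a type and less RNA per cell cannot be told apart. Macrophage markers moved the other way, with 8 of 8 higher in S55L naive and 7 of 8 in S55L PP (sums of 147 to 317 CPM in WT and 636 to 931 CPM in S55L). Fibroblast markers were higher for 4 of 7 and 5 of 7 (960.4 to 1362 CPM in WT, 1543 to 2440 in S55L). Of 7 endothelial markers tested 2 fell in each comparison (sums of 575.9 to 734 CPM in WT and 395 to 623 CPM in S55L). Of 3 smooth muscle markers tested 1 rose and 2 fell among naive hearts, and 1 rose and 0 fell among PP hearts (80.2 to 495 CPM in WT, 1177 to 3313 CPM in S55L). Acta2 made up most of these sums, with means of 203 CPM in WT naive, 276 in WT PP, 2223 in S55L naive and 1523 in S55L PP hearts. Mean Myh11 was lower in S55L (41.7 against 26.2 CPM among naive, 27.4 against 19.1 among PP hearts), as was mean Tagln. Cnn1 means were 1.71 to 2.67 CPM. Of 5 erythroid markers tested 3 fell among naive hearts, and 0 were called among PP hearts.

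Per 1000 CPM of the cardiomyocyte marker sum the order of the genotypes was not the same as in CPM. Acat1 was at 6.10 to 7.19 in WT naive hearts, 5.94 to 6.81 in WT PP hearts, 8.47 to 11.2 in S55L naive hearts and 7.57 to 10.7 in S55L PP hearts, so every S55L library was above every WT library. Oxct1 was at 15.5 to 22.0, 16.9 to 22.2, 20.5 to 27.8 and 25.3 to 34.7 in the same order of groups, with overlap among naive hearts and none among PP hearts. Bdh1 was at 0.92 to 1.45, 0.99 to 2.68, 0.76 to 1.87 and 1.82 to 3.22, and Slc16a1 at 0.65 to 1.36, 0.87 to 1.27, 0.58 to 1.14 and 0.97 to 1.23. Slc16a1 and Bdh1 overlapped between the genotypes in both states. The Bdh1 overlap among PP hearts rested on WT PP 5 alone, at 2.68, with the other WT PP libraries at 0.99 to 1.26. The Oxct1 overlap among naive hearts rested on WT naive 1, at 22.0, which lay above S55L naive 3, at 20.5. The other WT naive libraries were at 15.5 to 17.1, below all S55L naive libraries. These ratios are a description, and the part of the cell content in the CPM differences was not tested. They depend on which markers are summed, and other sets of markers were not tried.

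**Figure D3:**
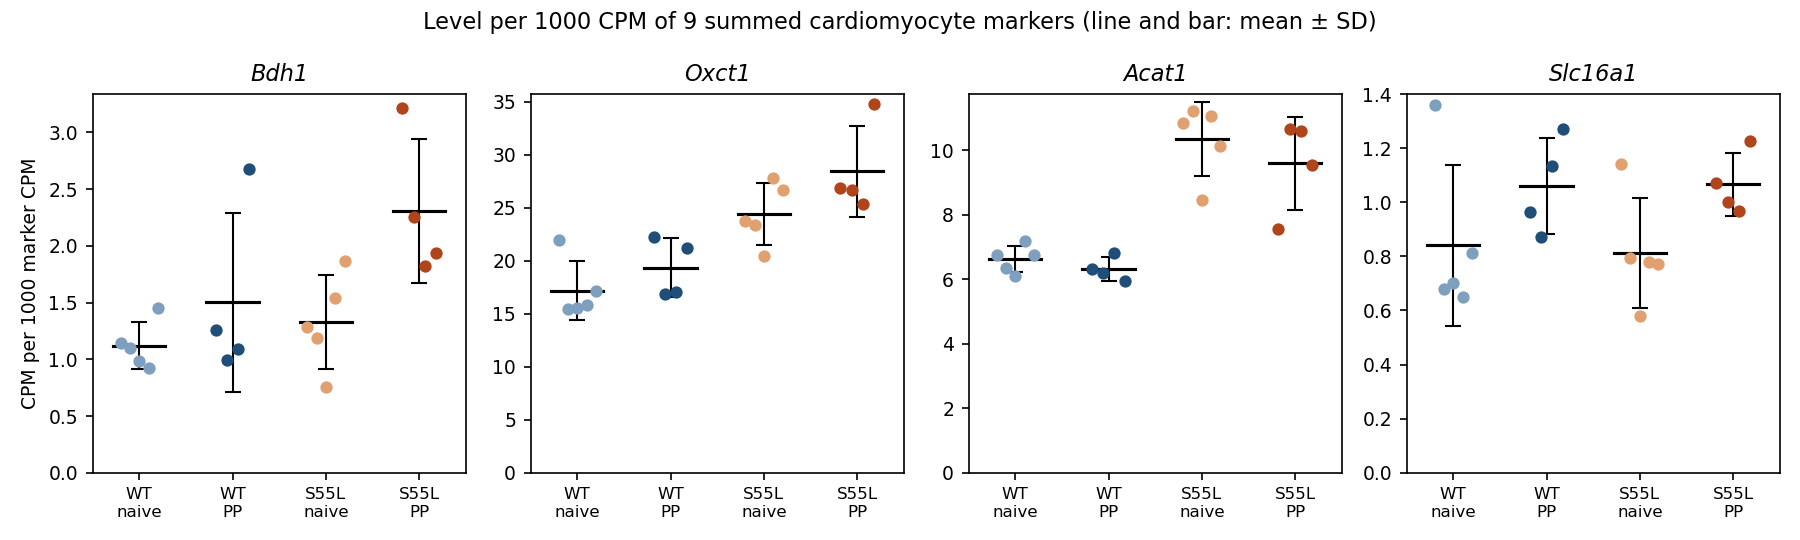
Level of each gene per 1000 CPM of 9 summed cardiomyocyte markers (vertical axes) in the 18 libraries of the postpartum study. Points are libraries, and lines and bars are means ± SD. On this scale Acat1 in S55L hearts lies above WT hearts, and Slc16a1 overlaps between the genotypes.

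Genotype also moved with library measures and with where a library lay on its plate. Mitochondrially encoded genes took 16.8% to 24.6% of the reads on genes in WT and 9.52% to 15.5% in S55L hearts. Of all reads, 24.7% to 27.3% in WT and 17.5% to 21.2% in S55L hearts lay on several places, and 58.3% to 61.6% against 66.3% to 69.2% lay on genes. These ranges do not overlap, and their part in the genotype differences of the members was not tested. All WT libraries but WT PP 1 came from well column 1, WT PP 1 and some S55L libraries from column 2, and the rest of S55L from column 3. With the well column as a term, which rests on single libraries, no member was called by edgeR. Slc16a1 was then at -0.58 (adjusted p = 0.17) among naive and -0.79 (0.11) among PP hearts, Oxct1 at -0.47 (0.16) and -0.49 (0.20), Bdh1 at -0.17 among naive (0.85) and Acat1 at -0.54 among PP hearts (0.18). Within column 2 the WT PP 1 library had 76.9 CPM of Slc16a1 and 1775 of Oxct1, above all S55L naive libraries of that column. Its Acat1 level of 506 CPM lay within the range of S55L naive, 484 to 573 CPM. S55L PP 5, the only S55L PP library from column 2, lay below WT PP 1 for Slc16a1, Oxct1, Acat1 and Bdh1. Each side of that comparison is a single library.

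With total counts in place of trimmed means as the scaling, only Slc16a1 was called, at -0.72 (adjusted p = 0.0012) among naive and -0.76 (0.0025) among PP hearts. That scaling moved the median over all genes to 0.24 and 0.27, and the share of calls that were higher from 50.3% to 73% and from 51.8% to 78%. Relative to that shift the member differences were close to those given above. On that scaling Bdh1 was at -0.43 (adjusted p = 0.19) and Oxct1 at -0.15 (0.37) and Acat1 at -0.02 (0.89) among naive hearts, and Oxct1 at -0.21 (0.27), Acat1 at -0.16 (0.37) and Bdh1 at -0.12 (0.78) among PP hearts. All these values were below 0, but that of Acat1 among naive hearts was close to it. Without the filter on low counts Oxct1 was not called in either state (adjusted p = 0.24 and 0.085), nor was Acat1 among PP hearts (0.17).

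Genes of the routes that share substrates with the members were measured as lists. In the list around succinyl-CoA, which gives Oxct1 its coenzyme A, 4 of 6 genes fell in each genotype comparison, none rose, and the median was -0.34 among naive and -0.45 among PP hearts. Dlst, a subunit of the oxoglutarate dehydrogenase complex that makes succinyl-CoA, was at -0.50 (adjusted p = 0.0022) and -0.73 (2e-04). Suclg1, the shared subunit of succinyl-CoA ligase, was at -0.41 (0.0050) and -0.51 (0.0029). Sdha, the flavoprotein of succinate dehydrogenase, was at -0.38 (0.018) and -0.47 (0.012). The Suclg1 and Sdha calls, and the Dlst call among naive hearts, were lost with total counts as the scaling and without the low-count filter, and the Sdha call among naive hearts without S55L naive 1 (adjusted p = 0.053). With only the compared groups fitted, the Sdha call among PP hearts was lost too (0.059).

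On the pyruvate and lactate side, the other cargo of Slc16a1, 3 of 6 genes fell among naive hearts (median -0.20) and 2 of 6 among PP hearts (median -0.37). Ldhb, the heart form of lactate dehydrogenase, was at 1287 ± 115 CPM in WT naive and 684 ± 89.2 in S55L naive (SD, n = 5 each; log2 fold change -0.91, adjusted p = 6.0e-06). It was at 1394 ± 129 CPM in WT PP and 700.4 ± 134 in S55L PP (SD, n = 4 each; -0.99, 1.3e-05). Mpc2, a subunit of the mitochondrial pyruvate carrier, was at -0.73 (adjusted p = 4.2e-04) among naive and -1.02 (4.8e-05) among PP hearts. Its partner Mpc1 fell among naive hearts (-0.58, 0.019), a call lost without WT naive 1 (0.083), and was at -0.50 (0.082) among PP hearts.

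Other carriers and chaperones were mostly too low to test, with 3 of 9 passing the filter. Bsg, which encodes basigin, the chaperone that brings MCT1 to the cell surface, fell from 303 ± 93.1 CPM in WT naive to 69.4 ± 21.0 in S55L naive (SD, n = 5 in each group; log2 fold change -2.13, SE 0.39, adjusted p = 4.3e-04). Among PP hearts it was at 167 to 425 CPM in WT and 70.01 to 255 CPM in S55L, where the median was 70.9 (-1.24, SE 0.43, adjusted p = 0.037). That call was lost without WT PP 1 (adjusted p = 0.13), WT PP 5 (0.071), S55L PP 3 (0.10), S55L PP 4 (0.099) or S55L PP 5 (0.10), without the low-count filter (0.11), and with only the compared groups fitted (0.087).

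Slc16a6, a monocarboxylate carrier described in ketone export from hepatocytes, rose from 18.1 ± 4.91 to 32.6 ± 3.61 CPM among naive hearts (SD, n = 5 in each group; log2 fold change 0.85, SE 0.23, adjusted p = 0.0043). Among PP hearts it rose by 0.79 (SE 0.25, adjusted p = 0.018), a call lost without WT PP 1 (0.072), WT PP 3 (0.052), S55L PP 3 (0.12) or S55L PP 4 (0.050), and with only the compared groups fitted (0.065). Slc16a7, the carrier MCT2, had 1 to 27 reads per WT library. It fell among PP hearts (-1.15, SE 0.40, adjusted p = 0.030), a call lost without WT PP 1 (0.17), WT PP 3 (0.052), S55L PP 3 (0.092) or S55L PP 4 (0.081). The receptor genes Hcar2 and Ffar3 had 0 to 3 reads in a whole group and were not tested.

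Of the 5 other genes of ketone use 1 was tested. Aacs, which activates acetoacetate in the cytosol for lipid synthesis, rose among PP hearts from 1.42 ± 0.81 to 3.89 ± 0.54 CPM (SD, n = 4 in each group; log2 fold change 1.32, SE 0.48, adjusted p = 0.036). It rests on 14 and 58 reads in all, and the call was lost with 6 of the 8 libraries left out in turn (adjusted p up to 0.099).

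Regulators of mitochondrial fuel use had 4 of 7 genes down and none up in each genotype comparison and medians of -0.46 and -0.65. Ppara, the fatty acid receptor that drives fat oxidation, was at 33.8 ± 10.4 CPM in WT naive and 8.99 ± 3.0 in S55L naive (SD, n = 5 each; log2 fold change -1.92, adjusted p = 4.5e-05). Among PP hearts it was at -1.74 (adjusted p = 4.8e-04). Ppargc1a, the coactivator of mitochondrial gene programmes, was at -0.60 (adjusted p = 0.0021) and -1.06 (2.2e-05). Esrra and Esrrg encode the nuclear receptors it works with. Esrra fell among naive hearts (-1.0, 0.0050) and was at -0.65 (0.10) among PP hearts. Esrrg was at -0.17 (0.60) among naive hearts and fell among PP hearts (-0.83, 0.014), a call lost without WT PP 4 (0.059) or S55L PP 5 (0.054). With the well column as a term, the calls that remained among the list genes named here were those of Bsg, Slc16a6, Ldhb, Ppara, Ppargc1a and Esrra among naive hearts and of Ppara and Ppargc1a among PP hearts. With total counts as the scaling the calls of Mpc1 and Ppargc1a among naive hearts and of Bsg, Slc16a7 and Esrrg among PP hearts were lost as well. In WT PP against WT naive, S55L PP against S55L naive, the interaction and the diets no gene of these lists was called by edgeR.

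**Figure D4:**
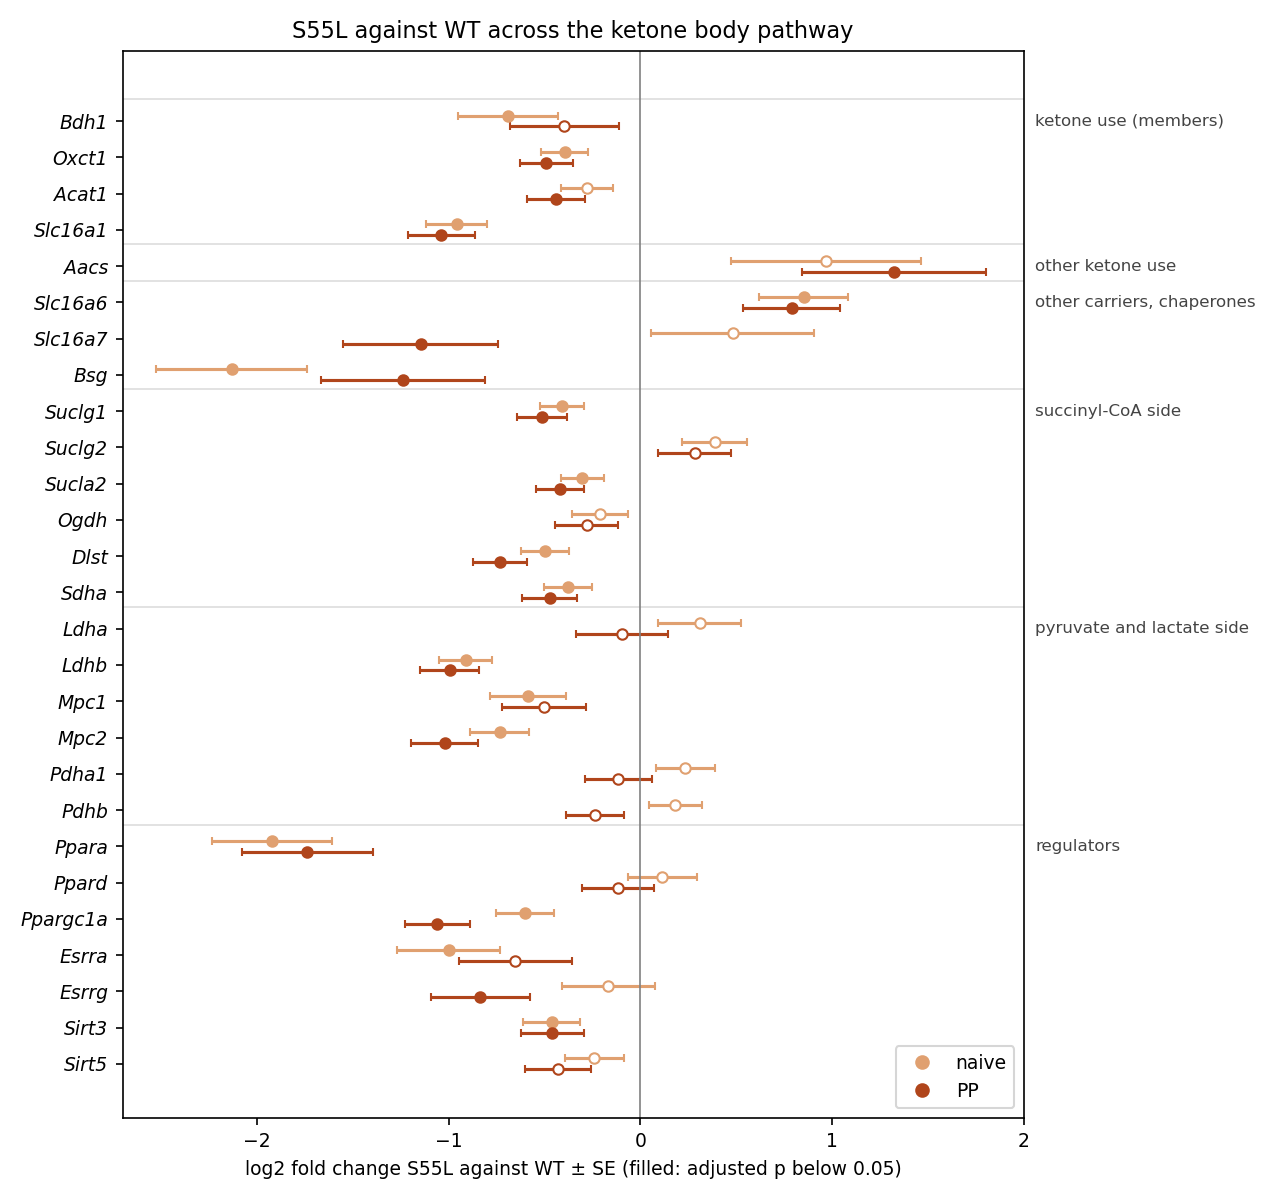
Log2 fold change of S55L against WT (horizontal axis, ± SE) for the 4 members and the tested genes of the lists described here, among naive and PP hearts. Filled symbols have an adjusted p below 0.05. The succinyl-CoA, pyruvate and regulator groups hold filled symbols on the lower side only, and Slc16a6 and Aacs are filled on the higher side.

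The diets gave no call. All EH301 libraries used came from well column 3 and the control diet libraries from columns 1 and 2. Diet and well column therefore cannot be told apart. EH301 against the control diet called 0 of 10335 genes (0%) by edgeR, 0 by DESeq2 and 1 by limma voom, with 137 genes and 0 members at an unadjusted p under 0.05. Oxct1 was at 3396, 1455, 1079 and 1482 CPM on the control diet and at 1045, 1562, 1165 and 1562 CPM on EH301. Control diet library 1, the shallowest of the study, held the highest value (log2 fold change -0.47, 95% interval -1.40 to 0.45). Without that library the difference was -0.0040.

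Slc16a1 was at 24.5, 31.7, 28.6 and 36.4 CPM on the control diet and at 58.8, 11.7, 30.3 and 24.6 CPM on EH301, from 11 to 170 reads. EH301 library 7 was the highest and EH301 library 8, with 12 reads, the lowest of all 8 (log2 fold change 0.06, 95% interval -0.85 to 0.97). The skeletal muscle and macrophage marker sums of EH301 library 8 were the highest on that diet, and their part in its Slc16a1 level was not tested. Without that library the log2 fold change of Slc16a1 was 0.27, and without EH301 library 7 it was -0.44. Bdh1 was at 40.0, 73.6, 60.6 and 97.1 CPM against 82.3, 79.8, 65.3 and 69.3 CPM on EH301, where all 4 lay within the control range (0.09, -0.55 to 0.74). Acat1 was at 62.3, 134, 165 and 134 CPM against 185, 93.4, 181 and 109 CPM on EH301 (0.18, -0.62 to 0.99). For each of the 4 genes the diets overlapped. The log2 differences called between the PP genotypes were -0.49 for Oxct1, -0.44 for Acat1 and -1.04 for Slc16a1. A rise of that size on EH301 lay inside the Acat1 interval and above the upper ends of the Oxct1 and Slc16a1 intervals. The Oxct1 interval was fitted with control diet library 1, and without that library the Oxct1 value was -0.0040. The upper end for Slc16a1, 0.97, was close to 1.04. That interval was fitted with EH301 libraries 7 and 8, each of which moved the Slc16a1 value when left out. No intervals are given for the fits without a library, so these upper ends do not exclude a rise of that size.

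**Figure D5:**
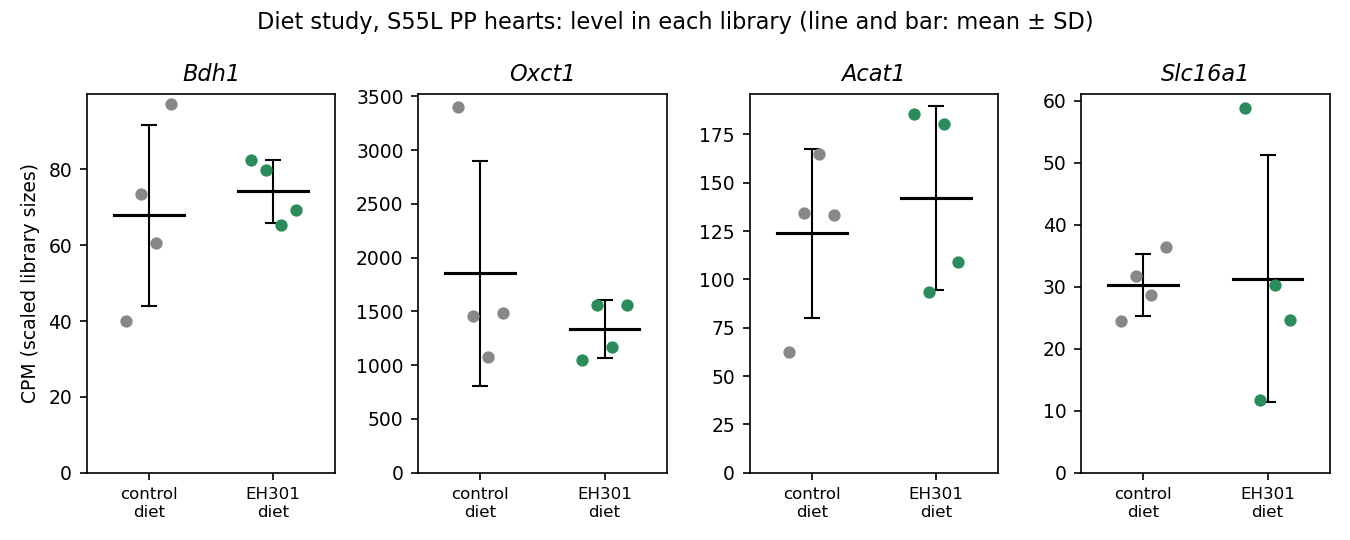
Level of each gene (vertical axes, CPM) in the 4 libraries of each diet, all S55L PP hearts. Points are libraries, and lines and bars are means ± SD. The diets overlap for all 4 genes, and control diet library 1 sets the highest Oxct1 and the lowest Acat1 and Bdh1 values.

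The likeness of the members over the 18 libraries was measured by a difference. The root mean square (RMS) difference of centred log2 CPM was 0.255 between Oxct1 and Acat1, the closest pair, and 0.569 between Bdh1 and Acat1, the farthest. The SDs of log2 CPM were 0.255 for Oxct1, 0.277 for Acat1, 0.54 for Bdh1 and 0.558 for Slc16a1. Genes with small SDs can have a small RMS difference without moving together, so this order does not show that Oxct1 and Acat1 did. Over all genes compared with a member, the median ran from 0.448 for Oxct1 to 0.649 for Bdh1. Of 9330 genes whose mean was 5 CPM or more, those most like Slc16a1 were Cycs (0.198), which encodes cytochrome c, Mrps31 (0.199) of the mitochondrial ribosome and Ndufv2 (0.207) of complex I, against a median of 0.648 over all candidates. For Oxct1 they were Prkar2a (0.111), a regulatory subunit of protein kinase A, Ank3 (0.118), an ankyrin, and Sod2 (0.121), the mitochondrial superoxide dismutase (median 0.448). For Acat1 they were Ndufa6 (0.120, complex I), Tspan7 (0.121, a tetraspanin) and Nipsnap2 (0.130, a mitochondrial protein; median 0.464). For Bdh1 they were Shb (0.322), an adaptor protein, Csrp3 (0.333), a muscle LIM protein, and Ttc17 (0.335), with a median of 0.649, so the nearest genes of Bdh1 were less near than those of the other members. All these values share the 18 libraries and the genotype split, and they are a description.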

How the data were processed

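The 18 postpartum-study and 8 diet-study libraries are from hearts. The deposited values are read counts per gene made by the authors. RNA came from a Qiagen RNeasy Mini kit and libraries from the Lexogen QuantSeq 3' FWD kit, per the labels' protocols. The submitters' processing notes name Trimmomatic 0.39, STAR 2.7.0f, HTSeq 0.6.1, DESeq2 3.21 and the build GRCm39.p6. The annotation release and strand setting are not given in the sources used here. By GENCODE M21 exons, Bdh1 overlaps Gm15743 and Oxct1 overlaps BC037032, each on the other strand and at least 29310 bases from the 3' end. These partners had 31 and 104 reads in all postpartum libraries.

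Symbols matched 51487 gene identifiers (99.4% of reads on genes) and 52073 (99.8%). The summary lines of HTSeq were not counted in library sizes. Reads on several places made up 17.5% to 39.1%, on several genes 1.97% to 7.08%, and on no gene 1.43% to 10.1% of a library. WT PP 1 and 2, and S55L PP 1 and 2, were identical and used once. Control diet 5 was identical to EH301 diet 6 and both were left out.

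Counts were filtered (filterByExpr), scaled (TMM) and compared by the quasi-likelihood test of edgeR 4.0.16 (robust, R 4.3.3), with Benjamini-Hochberg adjustment over all genes and a threshold of 0.05. The 4 postpartum groups were fitted together and the diets apart. Tables were never fitted together. The common biological coefficient of variation was 0.199 and 0.299. SE was taken from the fold change and its F statistic, and 95% intervals use that SE with the residual degrees of freedom of the libraries alone, fewer than in the test, so they are wider than the test. Likeness used log2 CPM with a prior count of 2. Scripts were tested on simulated data.

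Members and lists were chosen with earlier results of these data known. Named were the members, up to 3 called genes per list and comparison by lowest adjusted p, and the 3 genes most like each member. Some genes that these choices include are left out of the text. Same-numbered libraries were checked as pairs by correlating their deviations from the group mean. Between WT PP and S55L PP, r was 0.119 to 0.333 (4 pairs). Over the other pairs of groups it ran from -0.165 (S55L naive 3 and S55L PP 3) to 0.356 (WT naive 1 and WT PP 1). Differently numbered libraries were not correlated for comparison, so these values cannot show that the numbers pair libraries. The labels give no meaning of a number. Alternatives were total counts, DESeq2 size factors, the DESeq2 1.42.0 test, limma 3.58.1 voom with quality weights, no filter, no mitochondrially encoded genes, all columns, the shared diet column under either diet, no diet libraries under 1200000 reads, the replicate block, the well column, a fit of the compared groups alone, and each library left out in turn.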

Additional observations from a re-analysis of the deposited data

Results flagged for a closer look

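Bdh1 in WT PP 5 was at 226.64 CPM, while the nearest library of that group was at 104 CPM. The gap was a large part of the range of the 4 libraries. This was 1 of 24 groups of 4 or 5 libraries checked over the 4 genes, and chance flags about 1 in 20 groups.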

How the results depend on the processing

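Of 940 values of single genes recomputed under the alternatives, 835 kept their direction and their side of the threshold, 2 passed where they had not, 80 no longer passed and 23 changed direction, none of them a value that had been called. Members called by edgeR in S55L naive vs WT naive were 1 with total counts and 0 with the well column. In S55L PP vs WT PP they were 1 with total counts, 1 without the filter and 0 with the well column. Genes called numbered 2873 and 2108 with the well column. In WT PP vs WT naive 21 genes were called without the filter, 12 by DESeq2, 4 by voom, 21 with the well column, and 2 to 10 leaving out each library. In S55L PP vs S55L naive 3 were called with total counts, 37 without the filter, 18 by DESeq2, 22 by voom, 10 with all columns, 1 with the well column, 3 with only the compared groups, and 0 to 2 leaving out each library. For the interaction 5 were called without the filter, 1 by DESeq2, 2 with the well column and 0 to 2 leaving out each library. Between the diets voom called 1.

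Changes of direction were as follows, with the cause not tested. Leaving out each library, Bdh1 ranged from -0.63 to 0.0076 in S55L PP vs WT PP and from -0.0724 to 0.48 in WT PP vs WT naive. Oxct1 in S55L PP vs S55L naive was at -0.0167 without the filter, -0.00095 by voom, -0.0295 with the replicate block and -0.0452 to 0.0691 leaving out each library. In the interaction Bdh1 was at -0.34 with the well column and Slc16a1 at -0.23 to 0.03 leaving out each library. Between the diets Bdh1 was at -0.0022 by voom, -0.13 with the shared column under the control diet, -0.11 without libraries under 1200000 reads and -0.0574 to 0.27 leaving out each library. Slc16a1 was at -0.0567 by voom, -0.0942 with the shared column under the control diet and -0.44 to 0.27 leaving out each library, and Acat1 at -0.0128 to 0.31. Acat1 passed among naive hearts by voom (adjusted p = 0.025) and with only the compared groups (0.037), and did not pass among PP hearts with only the compared groups (0.10).

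With the replicate block 3 members were called in each genotype comparison (5475 and 4122 genes in all) and 0 in the others, and the block changed no member's call. No paired analysis was possible for the diets because their libraries share no numbers. The well column could not be fitted as a term there, since no column held used libraries of both diets. Depth limits Slc16a1 and Bdh1 most, with 11 and 18 reads in the shallowest diet library.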

Other observations

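Acat1 was at 62.3 to 185 CPM in the 8 libraries of the diet study and at 344 to 505 CPM in the 4 S55L PP libraries of the postpartum study. Oxct1 was at 1045 to 3396 CPM and at 1173 to 1262 CPM in the same sets. All of these are S55L PP hearts, but the tables were counted separately, on annotations of 56691 and 78258 genes, and the levels were not compared.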
